A study of Homo sapiens with 6 samples.

Results

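The semaphorin, plexin, neuropilin, Eph and ephrin genes were read out in SiHa cells, an established human papillomavirus-positive line from a cervical epidermoid (squamous) carcinoma. Members were picked out by gene symbol: semaphorins of any class, plexins A to D, NRP1 and NRP2, Eph receptors A and B, and ephrins A and B. This set of families, and the gene lists used below, were chosen with earlier results of these data known. The gene table held 50 of them among 17156 genes, made up of 20 semaphorins, 9 plexins, 2 neuropilins, 11 Eph receptors and 8 ephrins. Total RNA was sequenced as single-end reads from 6 libraries. The shcontrol group (3 libraries) carried a control hairpin and the shVPS13C group (3 libraries) a short hairpin RNA against VPS13C, which encodes a lipid transfer protein of membrane contact sites. Cells of both groups had been kept for 48 h in cisplatin at 20 µM, a platinum compound that damages DNA by crosslinks. The series title links loss of VPS13C to cisplatin resistance. A response to the drug could not be measured, because no library came from untreated cells. The labels do not say which hairpin or hairpins were used, or whether each replicate was its own culture. The p-values therefore rest on the spread between the libraries, which may be technical.

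Semaphorins are secreted or membrane-bound cues that bind plexins. The secreted class 3 members mostly need a neuropilin as co-receptor, and plexins pass the signal on through small GTPases to the cytoskeleton and to integrins. Ephrins sit in the membrane of a neighbouring cell, the A type by a lipid anchor and the B type by a transmembrane segment, and they bind Eph receptors, a large family of receptor tyrosine kinases. Known first for steering growing axons, both systems also act on adhesion, spreading and migration of epithelial and carcinoma cells, and EPHA2 is a prominent Eph receptor of epithelia.

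The libraries held 15643965 to 16333424 estimated counts, and the scaling factors between them ran from 0.996 to 1.01. VPS13C itself read 50.0, 54.9 and 49.6 CPM (counts scaled to a fixed library size) in the shcontrol libraries and 23.7, 25.1 and 27.5 CPM in the shVPS13C libraries, so the labels matched the targeted gene. The epithelial keratins KRT8, at a mean of 1430 FPKM (fragments per kilobase of transcript, scaled by depth), and KRT18, at 1095 FPKM, were abundant, whereas the basal squamous markers KRT5 and KRT14 were at 0.01 and 0.025 FPKM. Summed over 10 epithelial markers, the level was 3.75e+03 to 3.86e+03 FPKM in shcontrol and 3.58e+03 to 3.72e+03 FPKM in shVPS13C, and CDH1 was the only one of them called higher (log2 fold change 0.27, edgeR quasi-likelihood adjusted p = 0.00359). Of the 8 tested epithelial markers, 6 had a log2 fold change below 0 and 2 above, with a median of -0.05. KRT19 read lower in shVPS13C (log2 fold change -0.21, edgeR adjusted p = 0.0508). With limma on log2(FPKM + 1) and on log2(FPKM + 0.1), CDH1 lost its call and KRT19 was called. KRT19 was also called with no filter on low counts and with the robust form of the edgeR test. Sums of 5 endothelial markers lay at 0.79 to 0.95 FPKM in shcontrol and 0.59 to 1.02 FPKM in shVPS13C, with TEK at 0 counts. Neural markers summed to 368 to 375 against 406 to 426 FPKM, nearly all of it TUBB3, with STMN2 at 0 counts. For immune markers, 4 in the table, the sums were 21 to 25 against 27.9 to 30 FPKM, nearly all of it CD14, with PTPRC at 0 counts. The 5 fibroblast markers summed to 2.9 to 2.92 against 3.64 to 4.18 FPKM, mostly COL1A1. TUBB3, CD14 and COL1A1 were each called higher in shVPS13C (log2 fold changes 0.17, 0.34 and 0.43, edgeR adjusted p = 0.00886, 0.00513 and 0.00171). With the same limma settings CD14 kept its call, whereas TUBB3 and COL1A1 did not. The part of these marker changes in the results below was not tested.

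Of the 50 guidance genes, 36 had enough counts to be tested and 3 passed the threshold, an edgeR quasi-likelihood adjusted p under 0.05 taken over all 12671 genes tested. EPHB2, a receptor for B-type ephrins, and SEMA6D, a transmembrane semaphorin that binds plexin-A1, rose in shVPS13C cells, although SEMA6D passed the filter on low counts only through its shVPS13C libraries, where it was high. NRP1, the neuropilin that serves class 3 semaphorins and vascular endothelial growth factor, fell. These 3 are 8.33% of the tested members, beside 4.5% of all tested genes (2.27% higher and 2.23% lower). SEMA6D is counted among them, and 2 members were called with a filter on the mean CPM of both groups, which leaves it out. That filter called 557 genes over all. At an unadjusted p under 0.05 there were 7 members, 19.4%, beside 18.9% of all tested genes. The CPM of the 2 groups did not overlap in 11 members, 30.6%, beside 23.1% of all tested genes. SEMA6D is also counted among these 11 members and among the 7 at an unadjusted p under 0.05. Shares without SEMA6D were not computed, so these percentages are not read as an excess of members. In bulk RNA a gene made by fewer cells and a gene made at a lower level per cell cannot be told apart.

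The median log2 fold change was 0.05 over the 36 tested members and -0.001 over all tested genes, with 25 members above 0 and 11 below. SEMA6D, above 0, passed the filter on low counts only through its shVPS13C libraries, and EPHA6, below 0, through its 3 shcontrol libraries. The directions of SEMA6D and EPHA6 were therefore not free of the filter. Semaphorins lay mostly on the higher side, with 10 of 11 tested members above 0, SEMA6D among them, and a median of 0.10. Ephrins had 5 of 6 above 0 with a median of 0.01, and Eph receptors 5 of 9 with a median of 0.08. Plexins were split evenly, 4 above and 4 below 0. Over all tested genes 49.6% were above 0. Most of these differences were small against their errors, and no family was tested as a whole.

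**Figure D1:**
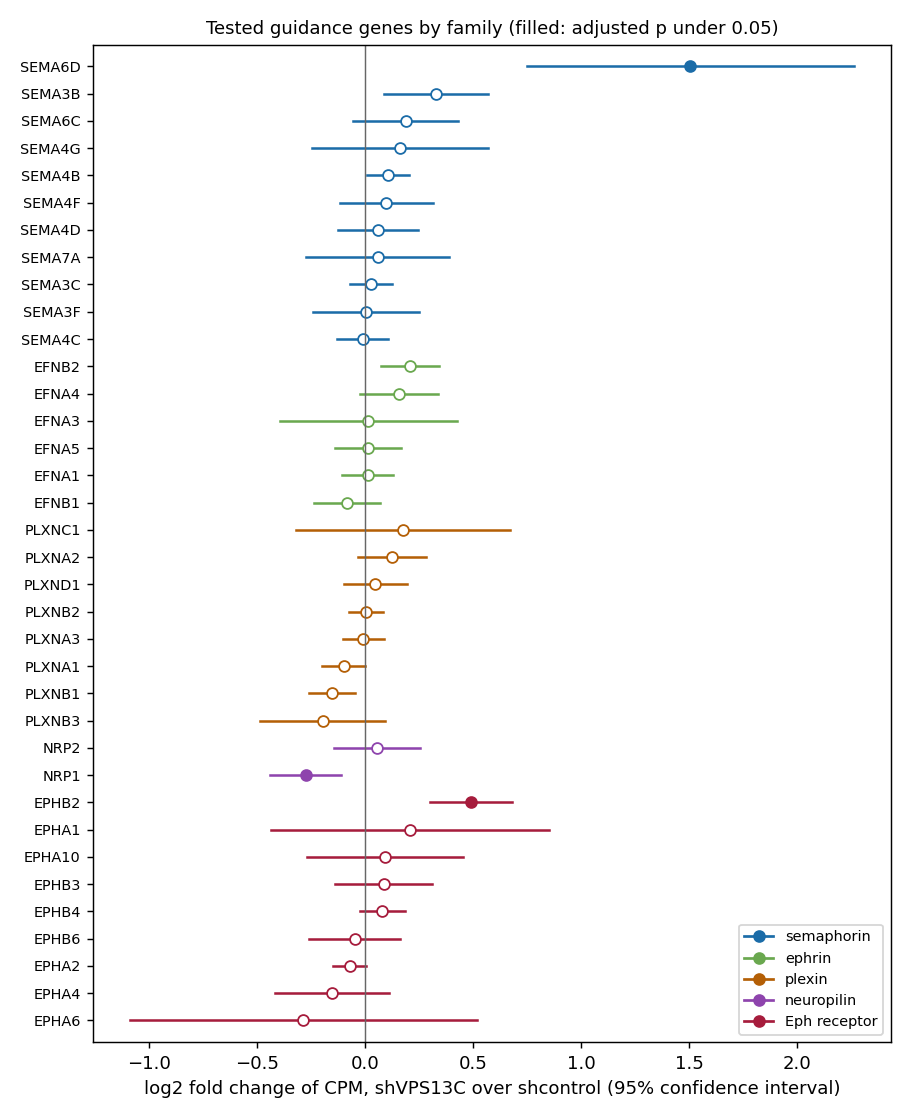
Log2 fold change of CPM, shVPS13C over shcontrol, for the 36 tested guidance genes, ordered by family. Circles are fitted values, lines their 95% confidence intervals, and filled circles mark SEMA6D, NRP1 and EPHB2, the 3 with an adjusted p under 0.05; SEMA6D stands farthest to the right at 1.51 with the widest interval among the called genes.

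EPHB2 (Entrez 2048, chromosome 1, 22710838 to 22921500, plus strand, GRCh38) measured 9.47, 9.84 and 10.8 CPM in the shcontrol libraries and 13.4, 13.9 and 14.96 CPM in the shVPS13C libraries. Every shVPS13C library lay above every shcontrol library. The mean went from 10.0 ± 0.669 to 14.1 ± 0.787 CPM (SD, n = 3 per group), a 1.41-fold rise. On the log2 scale this was 0.49 with an SE of 0.091 and a 95% interval from 0.30 to 0.68 (adjusted p = 0.00237 by edgeR). The adjusted p stayed below the threshold with each of the 6 libraries left out in turn, at most 0.0216, and was 0.0526 with limma on log2(FPKM + 0.1). Only 0.237% of its 50-base stretches occur in another gene.

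SEMA6D (Entrez 80031, chromosome 15, 47184089 to 47774228, plus strand) was close to the detection limit, with 5, 7 and 7 counts in the shcontrol libraries and 22, 19 and 14 in the shVPS13C libraries. Each shVPS13C library held more than any shcontrol library, at a mean of 1.14 ± 0.242 against 0.398 ± 0.0788 CPM. This 2.84-fold rise, 1.51 on the log2 scale with an SE of 0.367 and a 95% interval from 0.75 to 2.27, had an edgeR adjusted p of 0.0181. The gene entered the test only through its shVPS13C libraries: the low-count filter asked for 0.628 CPM in 3 libraries, which 0 shcontrol and 3 shVPS13C libraries reached. Its adjusted p rose to 0.112 without shVPS13C replicate 1, 0.0676 without shVPS13C replicate 2, 0.062 without shcontrol replicate 1 and 0.0501 without shcontrol replicate 2, and DESeq2 gave it no adjusted p. With limma it was 0.202 on log2(FPKM + 1), where the log2 difference shrank to 0.18.

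NRP1 (Entrez 8829, chromosome 10, 33177493 to 33334667, minus strand) read 20.8, 20.7 and 20.3 CPM in the shcontrol libraries and 18.7, 17.1 and 15.3 CPM in the shVPS13C libraries. The groups did not overlap, and the shVPS13C libraries were spread more widely. NRP1 fell by 0.27 on the log2 scale (SE 0.079, 95% confidence interval -0.44 to -0.11, adjusted p = 0.0476), from 20.6 ± 0.246 to 17.0 ± 1.71 CPM. Leaving out any single library ended the call, with adjusted p from 0.0506 without shVPS13C replicate 1 to 0.233 without shVPS13C replicate 3, and the adjusted p was 0.207 with DESeq2 and 0.159 with limma on log2(FPKM + 1). A stretch of 4.87% of its exon bases lies opposite another gene, whose reads could be mixed with its own if strand was not used in counting.

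**Figure D2:**
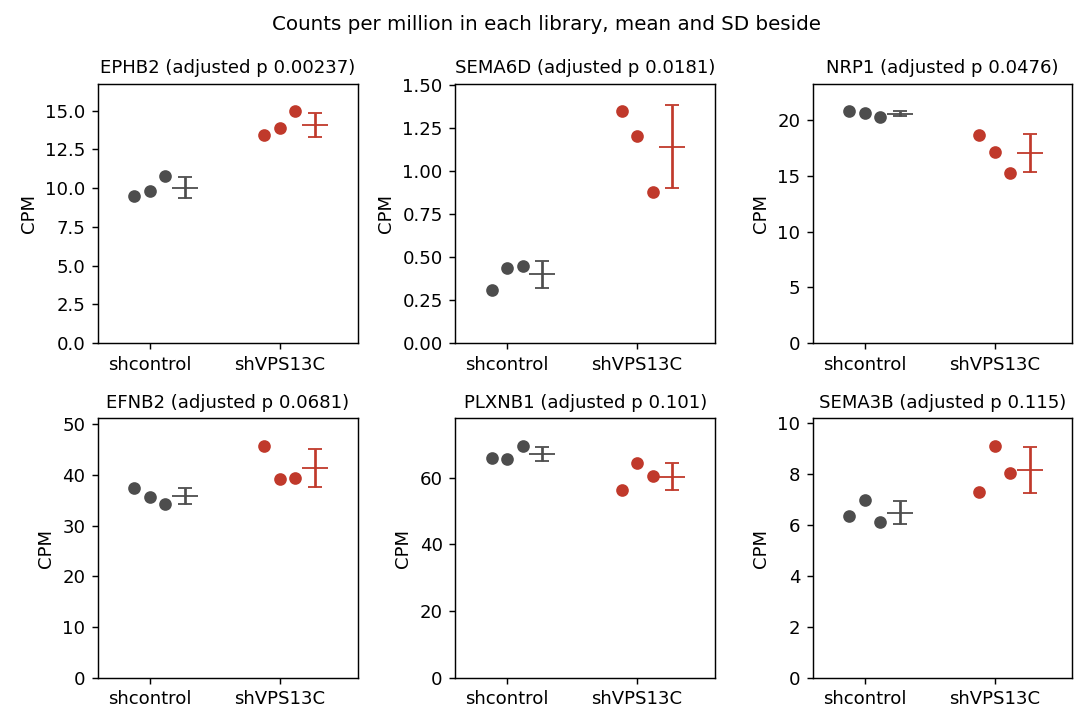
CPM of EPHB2, SEMA6D, NRP1, EFNB2, PLXNB1 and SEMA3B in each of the 3 shcontrol (grey) and 3 shVPS13C (red) libraries, 1 point per library, with the mean and SD as a bar beside the points and all axes from 0. The 6 genes are the tested members with the smallest edgeR p, and their groups do not overlap. Of all tested genes, 23.1% do not overlap. The first 3 have edgeR adjusted p-values of 0.00237, 0.0181 and 0.0476.

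The DNA around the start sites of the 2 genes that rose is shown to compare its base composition. Each window runs from 250 bases before to 50 bases after an annotated start, on the gene's own strand, with sequences from RefSeq on GRCh38.p14. Capitals mark the GC box, searched as GGGCGG and its reverse complement CCGCCC.
EPHB2, chr1:22710588-22710887, plus strand: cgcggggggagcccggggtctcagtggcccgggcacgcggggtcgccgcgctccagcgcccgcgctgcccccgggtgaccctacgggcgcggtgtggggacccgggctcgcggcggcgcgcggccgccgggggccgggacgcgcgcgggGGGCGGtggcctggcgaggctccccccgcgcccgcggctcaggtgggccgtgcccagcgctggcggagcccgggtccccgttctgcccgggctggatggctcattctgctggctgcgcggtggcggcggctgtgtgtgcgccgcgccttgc
SEMA6D first start, chr15:47183839-47184138, plus strand: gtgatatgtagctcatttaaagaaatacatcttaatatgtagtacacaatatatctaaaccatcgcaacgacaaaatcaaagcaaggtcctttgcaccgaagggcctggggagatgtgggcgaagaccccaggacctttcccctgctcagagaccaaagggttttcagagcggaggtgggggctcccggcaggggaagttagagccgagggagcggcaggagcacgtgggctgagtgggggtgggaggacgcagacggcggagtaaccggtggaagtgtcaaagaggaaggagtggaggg
SEMA6D second start, chr15:47717255-47717554, plus strand: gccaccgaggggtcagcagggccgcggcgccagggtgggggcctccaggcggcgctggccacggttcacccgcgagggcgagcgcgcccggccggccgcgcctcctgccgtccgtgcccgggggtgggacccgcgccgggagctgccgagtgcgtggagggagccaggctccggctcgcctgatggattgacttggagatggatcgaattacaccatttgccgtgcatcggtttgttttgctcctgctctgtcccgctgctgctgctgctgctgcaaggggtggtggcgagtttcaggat
SEMA6D last start, chr15:47718239-47718538, plus strand: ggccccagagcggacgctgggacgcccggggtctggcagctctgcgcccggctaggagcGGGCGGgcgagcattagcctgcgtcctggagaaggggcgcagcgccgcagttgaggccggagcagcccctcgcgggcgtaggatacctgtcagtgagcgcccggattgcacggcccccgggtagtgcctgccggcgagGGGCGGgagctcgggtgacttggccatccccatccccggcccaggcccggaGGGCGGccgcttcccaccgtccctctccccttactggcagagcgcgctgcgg
The EPHB2 window holds 1 GC box and 49 CpG dinucleotides at 83% G and C. At its first start SEMA6D has 0 GC boxes, 13 CpG and 54.7% G and C, its second start has 0 GC boxes, 31 CpG and 70.7% G and C, and its last start has 3 GC boxes, 33 CpG and 74.7% G and C. Among 35116 such windows of the genome, 45% hold a GC box on either strand, the median is 14 CpG and the median G and C content is 58.7%. A TATAAA motif was found in 0 of these 4 windows and in 11.5% of all windows. These matches describe the letters alone, and the reads do not show which SEMA6D start was used.

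Among the secreted class 3 semaphorins, SEMA3C was the most abundant at 13.6 FPKM and differed little, with 63.9, 60.9 and 61.9 CPM in shcontrol and 63.6, 62.1 and 64.7 CPM in shVPS13C libraries (log2 fold change 0.03, 95% confidence interval -0.07 to 0.13, adjusted p = 0.802). SEMA3B, a semaphorin gene of 3p21 studied as a tumour suppressor, measured 6.34, 6.96 and 6.09 CPM in shcontrol and 7.29, 9.08 and 8.01 CPM in shVPS13C. Its groups did not overlap, with a log2 difference of 0.33 (SE 0.117, 95% confidence interval 0.09 to 0.57), but the adjusted p of 0.115 missed the threshold. SEMA3F, which signals through NRP2, had a log2 difference of 0.01 (95% confidence interval -0.24 to 0.25). SEMA3A, SEMA3E and SEMA3G were too low to test, and SEMA3D had 0 counts.

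The class 4 semaphorins, which span the membrane, were the best expressed class. SEMA4B led at 18.4 FPKM, 30.6% to 31.7% of the summed semaphorin FPKM in each library, and read 64.3, 60.2 and 61.9 CPM in shcontrol and 66.2, 68.2 and 66.3 CPM in shVPS13C. These groups did not overlap either, at a log2 difference of 0.11 (SE 0.047, adjusted p = 0.221). SEMA4C, a ligand of plexin-B2, followed at 12.1 FPKM with a log2 difference of -0.01 (95% confidence interval -0.13 to 0.11). SEMA4D, the ligand of plexin-B1, stood at 2.94 FPKM, SEMA4F at 2.68 FPKM and SEMA4G at 0.592 FPKM, with log2 differences of 0.06, 0.10 and 0.16 that missed the threshold. Of the SEMA4G sequence, 17.6% of the 50-base stretches occur also in another gene, with MRPL43 sharing the most. Genes on the opposite strand cover 27.4% of its exon bases. Their reads could be mixed with those of SEMA4G if strand was not used in counting.

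SEMA6C measured 5.91, 5.64 and 5.64 CPM in shcontrol and 6.68, 6.47 and 6.45 CPM in shVPS13C libraries, again without overlap (log2 difference 0.19, SE 0.118, adjusted p = 0.409). The lipid-anchored SEMA7A, which binds plexin-C1 and integrins, was at 3.26, 3.197 and 4.10 CPM in shcontrol and 3.68, 3.68 and 3.63 CPM in shVPS13C, within the control range. SEMA5A, the higher of the class 5 genes, had 0, 1 and 1 counts in shcontrol and 0, 1 and 0 in shVPS13C libraries.

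Ephrin-A ligands were led by EFNA1, a ligand of EPHA2, at 32.2 FPKM or 45.04% to 48.9% of the summed ephrin FPKM. Its 40.6, 42.9 and 39.0 CPM in shcontrol and 40.8, 43.1 and 39.7 CPM in shVPS13C libraries covered the same range (log2 difference 0.01, 95% confidence interval -0.11 to 0.13). EFNA4, at 11.8, 12.5 and 12.7 against 13.4, 13.0 and 14.96 CPM, did not overlap between the groups, with a log2 difference of 0.16 and an adjusted p of 0.343. EFNA1, EFNA3 and EFNA4 lie near each other on chromosome 1, from 155063740 to 155134899. Of the 50-base stretches, 10.7% in EFNA4 and 42.2% in EFNA3 occur also in another gene, with AL691442.1, which overlaps EFNA3 and EFNA4, sharing the most. For EFNA1 the share was 0%. EFNA5 stood at 3.87 FPKM and EFNA3 at 1.75 FPKM, with log2 differences of 0.01 and 0.02.

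EFNB2, the ephrin ligand of EPHB4 and EPHB2, came close to the threshold. Its libraries read 37.4, 35.7 and 34.2 CPM in shcontrol and 45.7, 39.2 and 39.3 CPM in shVPS13C, where replicate 1 was the highest. The log2 difference was 0.21 (SE 0.065, 95% confidence interval 0.08 to 0.34, adjusted p = 0.0681). The adjusted p was 0.0287 with no filter on low counts and 0.0427 with the robust form of the test, and 0.369 without shVPS13C replicate 1. An antisense gene covers 26.2% of the EFNB2 exon bases, so reads of the pair may not be told apart. EFNB1 had 25.8, 27.2 and 24.2 CPM in shcontrol and 22.1, 25.8 and 25.0 CPM in shVPS13C libraries, which overlap (log2 difference -0.08, adjusted p = 0.593).

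On the plexin side, PLXNB2 dominated at 80.4 FPKM, 68.3% to 70.1% of the summed plexin FPKM, and rank 1297 of all genes. Libraries held 474, 491 and 510 CPM in shcontrol and 483, 508 and 490 CPM in shVPS13C, which overlap fully (log2 difference 0.01, 95% confidence interval -0.08 to 0.09). PLXNB1, the receptor of SEMA4D, measured 65.8, 65.7 and 69.4 CPM in shcontrol and 56.4, 64.2 and 60.4 CPM in shVPS13C. Its groups did not overlap and the log2 difference was -0.15 (SE 0.052, 95% confidence interval -0.26 to -0.04), with an adjusted p of 0.101. PLXNB3 was low at 0.788 FPKM, and 18.3% of its 50-base stretches occur also in another gene, with SRPK3 sharing the most.

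Plexin-A receptors, which pair with neuropilins for class 3 semaphorins or bind class 6 members directly, did not pass the test. PLXNA3 stood at 11.4 FPKM, with 83.9, 91.6 and 84.6 against 84.9, 89.2 and 84.8 CPM, a log2 difference of -0.01. PLXNA1, the receptor of SEMA6D, had 84.4, 84.8 and 81.7 CPM in shcontrol and 74.5, 83.7 and 76.4 CPM in shVPS13C, with overlap (log2 difference -0.10, 95% confidence interval -0.20 to 0.001, adjusted p = 0.270). PLXNA2 had a log2 difference of 0.13 and an adjusted p of 0.402, although its groups did not overlap.

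PLXNC1, the SEMA7A receptor, was at 1.54, 1.32 and 1.73 CPM in shcontrol and 2.02, 1.71 and 1.44 CPM in shVPS13C libraries. PLXND1, a receptor of SEMA3E, had 21.3, 22.3 and 21.3 CPM in shcontrol against 21.3, 23.2 and 22.7 CPM in shVPS13C. Both overlapped between groups. On the CPM scale PLXND1 had a log2 difference of 0.05, whereas on the log2 scale of FPKM plus 1 it was -0.06, and neither passed its test. NRP2, the other neuropilin, stood at 2.65 FPKM with a log2 difference of 0.06 (95% confidence interval -0.14 to 0.26, adjusted p = 0.810). The difference between the changes of NRP1 and NRP2 was not tested.

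Among the Eph receptors EPHA2 made up 83.0% to 85.4% of the summed Eph FPKM, at 154 FPKM and rank 626 of all genes. Its 584, 560 and 588 CPM in shcontrol and 542, 559 and 550 CPM in shVPS13C libraries did not overlap, by a margin smaller than the spread within either group. The log2 difference was -0.07 (SE 0.038, 95% confidence interval -0.15 to 0.01, adjusted p = 0.325). The other tested EphA genes were far lower, EPHA4 at 1.03, EPHA10 at 0.673, EPHA1 at 0.370 and EPHA6 at 0.0433 FPKM, and 0 of them passed. EPHA6 entered the test through its 3 shcontrol libraries, with 1 shVPS13C library at the filter level.

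The leading EphB receptor was EPHB4 at 19.7 FPKM, with 74.7, 81.6 and 72.8 CPM in shcontrol and 79.0, 84.9 and 78.7 CPM in shVPS13C, which overlap (log2 difference 0.08, adjusted p = 0.396). Behind it in shcontrol cells came EPHB6, which lacks kinase activity, at 2.99 ± 0.405 FPKM, EPHB2 at 2.18 ± 0.155 FPKM and EPHB3 at 1.80 ± 0.0681 FPKM (SD, n = 3). In shVPS13C cells EPHB2 reached 3.05 ± 0.178 FPKM and EPHB6 was at 2.91 ± 0.221 FPKM, which do not differ beyond their spread. EPHB2 thus stayed well under EPHB4 and EPHA2 in both groups.

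**Figure D3:**
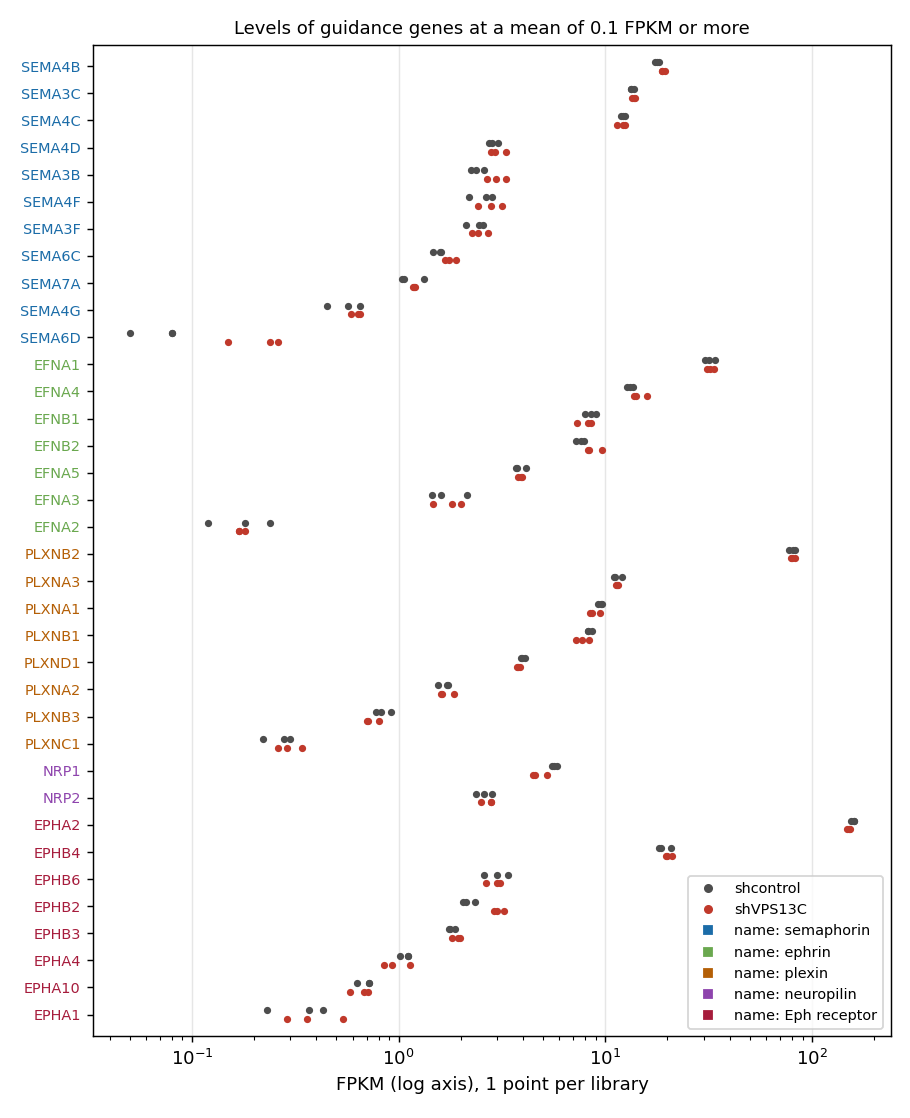
FPKM of guidance genes with a mean of at least 0.1, on a log axis, 1 point per library, grey for shcontrol and red for shVPS13C; name colours give the family. EPHA2 at 154 and PLXNB2 at 80.4 FPKM stand above the rest of their families, and for most genes the points of both groups lie close together.

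Of all 50 guidance genes, 29 had a mean of at least 1 FPKM and 9 of at least 10 FPKM. Summed FPKM per family was 57.1 ± 0.586 in shcontrol and 60.0 ± 1.23 in shVPS13C for semaphorins, and 67.2 ± 2.10 against 69.7 ± 0.511 for ephrins. Receptors gave 116 ± 3.02 against 115 ± 3.13 for plexins, 8.27 ± 0.316 against 7.47 ± 0.248 for neuropilins and 186 ± 1.99 against 181 ± 2.80 for Eph receptors (SD, n = 3). The sums were not tested. Within the semaphorins SEMA4D, SEMA3B, SEMA4F and SEMA3F, between 2.42 and 2.94 FPKM, had ranges over the 6 libraries that overlapped between neighbours in rank.

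The 14 guidance genes outside the test were low in both groups. EPHB1, SEMA3D, SEMA5B and SEMA6A had 0 counts in all 6 libraries, which allows up to 3 counts or 0.184 to 0.192 CPM per library, counting error only. SEMA4A had 0 counts in each shcontrol library and 1, 4 and 1 in the shVPS13C libraries, at the edge of that limit, so no fold is given. SEMA3E, a ligand of PLXND1, had 10.1, 7.89 and 10.1 estimated counts in shcontrol and 9.17, 7.01 and 14.2 in shVPS13C, and SEMA3A 6, 4 and 5 against 10, 4 and 8. EFNA2 had 5 to 9 counts, EFNB3 had 2 to 6, and EPHA8, PLXNA4, SEMA3G, SEMA5A and SEMA6B had at most 2 counts in any library. EPHA8 lies on chromosome 1 from 22563489 to 22603595, before EPHB2, which starts at 22710838. It had 1, 0 and 1 counts in shcontrol and 0 in the shVPS13C libraries.

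Genes listed as partners of these receptors were also read, from lists chosen with earlier results of these data known. A place on a list does not show that a gene works with these receptors in these cells. PLXDC1 and PLXDC2 are counted among the semaphorin and plexin partners for a plexin-like domain alone. Of 42 partners of semaphorins and plexins in the table, 36 were tested, 3 passed as higher and 1 as lower, or 11.1% beside 4.5% of all tested genes. PLXDC2, a membrane protein with a plexin-like domain, rose from 24.6 ± 0.780 to 33.9 ± 2.46 CPM (log2 fold change 0.46, SE 0.068, edgeR quasi-likelihood adjusted p = 0.000211). DPYSL5, of the collapsin response mediator family that relays semaphorin signals in neurons, rose from 8.30 ± 0.425 to 11.9 ± 1.56 CPM (0.52 on the log2 scale, adjusted p = 0.00508). ITGA1, a subunit of an integrin that binds SEMA7A, rose from 19.0 ± 0.635 to 23.9 ± 0.994 CPM (0.33 on the log2 scale, adjusted p = 0.00823).

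MET, the hepatocyte growth factor receptor, which associates with B-type plexins, read 174, 173 and 159 CPM in the shcontrol libraries and 144, 141 and 153 CPM in the shVPS13C libraries. It fell by 0.21 on the log2 scale (SE 0.045, adjusted p = 0.00625), with no overlap between groups. Its adjusted p was 0.0582 without shVPS13C replicate 1 and 0.0558 without shVPS13C replicate 2. Without shVPS13C replicate 1 the adjusted p was also 0.0506 for DPYSL5 and 0.0681 for ITGA1, whereas PLXDC2 kept its call in 6 of 6 fits with a library left out. With limma on log2(FPKM + 1) the adjusted p was 0.0926 for PLXDC2, 0.0763 for DPYSL5 and 0.127 for ITGA1, and on that scale the PLXDC2 difference was 0.27. MET passed there at 0.0449. KDR, the endothelial growth factor receptor that NRP1 assists, was not tested, at a mean of 0.005 FPKM.

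Of 37 Eph and ephrin partners in the table, 36 were tested, 1 was higher and 1 lower, or 5.56%, near the 4.5% of all tested genes. TNS3, a tensin of focal adhesions, rose from 53.0 ± 3.28 to 63.7 ± 2.81 CPM (log2 fold change 0.27, SE 0.053, adjusted p = 0.00442). RASA1, a Ras GTPase-activating protein that binds activated EPHB2, measured 40.5, 38.4 and 34.9 CPM in shcontrol and 33.7, 29.01 and 32.5 CPM in shVPS13C. RASA1 fell by 0.26 on the log2 scale (SE 0.068, adjusted p = 0.0279). The RASA1 call was lost without shcontrol replicate 1 (0.131), shcontrol replicate 2 (0.0839), shVPS13C replicate 2 (0.162) or shVPS13C replicate 3 (0.0685), with DESeq2 (0.0943) and with limma on log2(FPKM + 1) (0.169). TNS3 had 0.101 with that limma setting. ADAM10, which sheds ephrins, was at 152 ± 6.30 and 153 ± 6.92 CPM. Medians of the log2 differences were 0.01 for the semaphorin partners and 0.02 for the Eph partners, beside -0.001 for all tested genes.

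**Figure D4:**
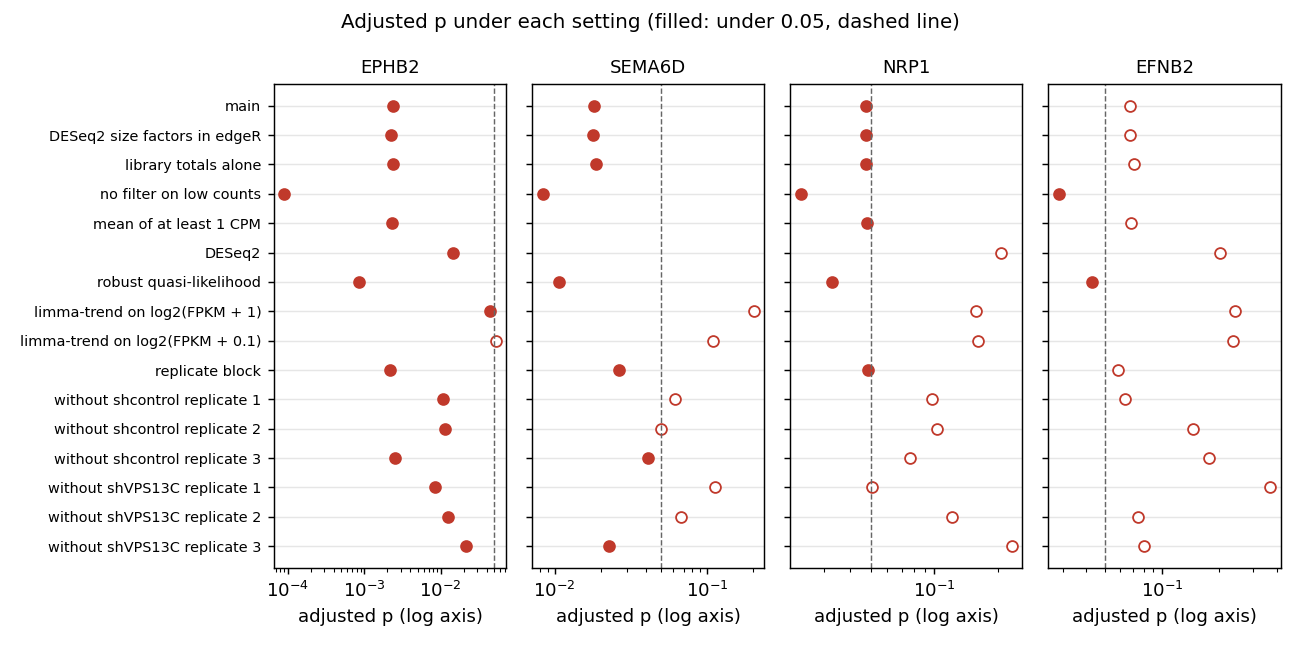
Adjusted p of EPHB2, SEMA6D, NRP1 and EFNB2, on a log axis, under the main test and each other setting, with filled circles under 0.05 (dashed line). EPHB2 passes in all but limma on log2(FPKM + 0.1), at 0.0526, while NRP1 passes in 0 of the 6 fits with a library left out and SEMA6D in 2 of 6; SEMA6D has no value under DESeq2 or the filter on a mean of at least 1 CPM.

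The deposited table of RefSeq transcripts splits each gene's estimated count among its transcripts, a split that short single-end reads support weakly. Of the member transcripts, 48 from 23 genes had a mean count of at least 20 and a mean share of 10% to 90%. The shares did not overlap between groups in 5 of them, 10.4%, beside 10% of such transcripts of all genes, so the count was at the background. In SEMA3F the transcript XM_005265382.4 took 49.1%, 51.0% and 55.2% of the gene's count in shcontrol and 75.1%, 71.9% and 81.2% in shVPS13C libraries. For PLXNB1, NM_001130082.3 took 7.51%, 34.0% and 20.9% in shcontrol and 53.8%, 43.7% and 50.9% in shVPS13C, and the shcontrol libraries were themselves far apart. The EFNA5 transcript NM_001962.3 went from a mean of 81.4% ± 1.77 to 87.1% ± 1.58. Transcripts of PLXNA3 and PLXND1 made up the remaining pair. EPHB2 reads fell mostly to XM_006710442.4, at 64.3% ± 15.5 in shcontrol and 66.7% ± 8.81 in shVPS13C, and the shares of both groups overlapped. The minor EPHB2 transcript XM_024453895.1, at a mean of 3.50 counts and so under the limit of 20, had 0, 0 and 1.42 counts in shcontrol and 6.41, 6.29 and 6.91 in shVPS13C libraries. No background share was computed for transcripts under that limit, so this difference cannot be set against one. SEMA6D has 21 transcripts in the table, and 0 of them had counts in every library.

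**Figure D5:**
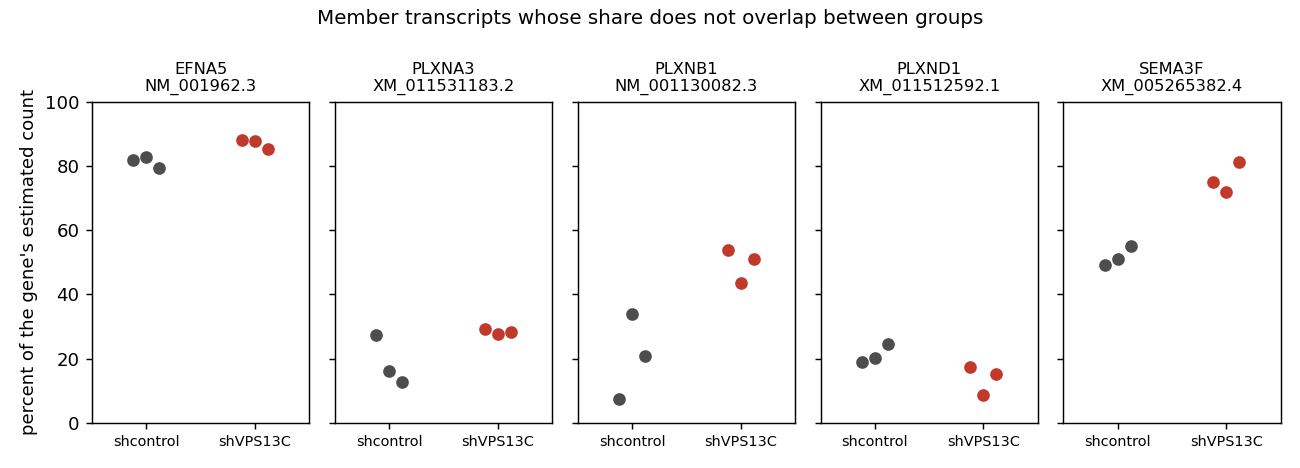
Percent of a gene's estimated count assigned to 1 transcript, per library, for the 5 member transcripts whose shares do not overlap between shcontrol (grey) and shVPS13C (red). The SEMA3F and PLXNB1 transcripts are higher in all shVPS13C libraries, and the share of PLXND1 is lower.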

How the data were processed

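Total RNA of 6 SiHa libraries was read as single-end 50-base reads, per the labels. The authors deposited estimated counts of reads per gene and per RefSeq transcript, of which 14.7% to 15.6% per gene library column were not whole. The authors' FPKM values stand in the same table. The build was hg38, per the submitters' processing notes, while the aligner is not given in the sources used here, nor are the counter, its annotation and strandedness. Another 30 per-sample columns and 16 columns of group means were not used.

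Counts were rounded, filtered with filterByExpr (minimum count 10), scaled by TMM and compared with the two-sided edgeR 4.0.16 quasi-likelihood test over 12671 genes (R 4.3.3, 4 residual degrees of freedom, Benjamini-Hochberg adjustment, threshold 0.05). The common biological coefficient of variation was 0.035. Log2 fold changes are shVPS13C over shcontrol. CPM compares a gene between groups, and FPKM compares genes. Replicates differed beyond sampling noise (chi-square over degrees of freedom 1.96 to 3.55 for pairs within a group). The procedure was also run on simulated counts with a biological coefficient of variation of 0.035 for every gene. Its outcome is not given here and lends no weight to the calls. Alternatives used DESeq2 1.42.0, limma 3.58.1, other scalings and filters, a replicate block, and each library left out.

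The members and lists were chosen with earlier results of these data known. Full values are given for members past the threshold and, per class, for the highest in FPKM and the smallest p; from partner lists, for each called gene or, where none was called, the smallest p. Other genes (ADAM10, KDR, NTN4, NEO1, ROBO1, SLIT2, FURIN, MMP14 and the markers) serve as context and were chosen after their values were seen. Coordinates and start windows come from RefSeq (44 members have a window) and shared 50-base stretches and overlaps from GENCODE 29. Floors of 3 counts cover counting error only.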

Additional observations from a re-analysis of the deposited data

How the results depend on the processing

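With 3 libraries a group, 3 members were called. The count was 1 with DESeq2, 1 with limma-trend on log2(FPKM + 1) and 0 with limma-trend on log2(FPKM + 0.1), and 1 to 2 with a library left out; it was 4 with no filter on low counts and 4 with the robust test. Over all genes the count of 570 became 323, 147 and 151 under those settings and 204 to 463 with a library left out, the lowest without shVPS13C replicate 1, and 758 with no filter and 633 with the robust test. Of the 6 partner genes called, 1 passed with each limma setting, and 3 to 8 genes passed with a library left out. The cause was not tested. The median log2 difference of members stayed between 0.02 and 0.06 in all 15 alternatives. No pairing by replicate number was seen, with correlations of 0.04, -0.007 and -0.15 for same-numbered libraries and -0.111 to 0.111 for the others. Such values cannot exclude a pairing. With the replicate block 3 members, 6 partner genes and 483 genes were called. In 298 single-gene settings, 270 kept direction and side of the threshold, 16 lost the call, 2 gained it and 10 reversed. Those reversed were uncalled genes near 0: EFNA1 (-0.0203 to 0.0516), PLXNA3 (-0.0305 to 0.0360), PLXNB2 (-0.0197 to 0.0323) and SEMA7A (-0.00396 to 0.181) with a library left out, and PLXND1 at -0.0579 and -0.0709 with the limma settings on FPKM plus 1 and plus 0.1.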

Other observations

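Other guidance families were also read, from a list of netrins, slits, repulsive guidance molecules and their receptors. Of 25 in the table, 12 were tested and 0 passed the edgeR quasi-likelihood threshold, with 2 at an unadjusted p under 0.05 (16.7%, beside 18.9% of all tested genes), and 0 passed with DESeq2 or limma. The netrin NTN4 stood at 25.2 FPKM and its family's receptor NEO1 at 22.9 FPKM, with log2 differences of -0.02 each. ROBO1, a slit receptor, was at 7.31 FPKM with a log2 difference of 0.04, while SLIT2 had 0 counts in all 6 libraries. SRGAP1, a GTPase-activating protein that acts downstream of slit receptors, had the smallest p, at 44.8 CPM in shcontrol and 39.5 CPM in shVPS13C (log2 difference -0.18, adjusted p = 0.0630).

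Among 10 proteases that cut semaphorins, ephrins or their receptors, 9 were tested and 0 passed with edgeR, DESeq2 or limma, with 2 at an unadjusted p under 0.05 in edgeR (22.2%, beside 18.9% of all tested genes). FURIN, which processes class 3 semaphorins, was at 47.5 FPKM (log2 difference 0.10, adjusted p = 0.184), and MMP14 at 54.9 FPKM (0.07, adjusted p = 0.376). ADAM8 was lower in each shVPS13C library than in any shcontrol library, at 4.21 against 2.92 CPM, with a log2 difference of -0.53 and an adjusted p of 0.0893, or 0.049 with no filter on low counts.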
